A study of Mus musculus with 32 samples.

Results

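Genes of cholesterol and oxysterol metabolism were followed in cultured mouse chondrocytes, namely Ch25h, Cyp7b1, Rora, Hmgcs1, Sqle, Insig1, Srebf2 and Abca1. They were chosen by name for their place in the pathway, with earlier results of these data known, and all 8 were found among the 41388 genes counted. Bulk RNA sequencing was performed on 32 libraries of primary chondrocytes from the sterna and ribs of newborn C57BL/6 mice (P1 to P3), used without passage. The floxed lines carried loxP sites in Ldha (lactate dehydrogenase A), Nampt (an enzyme of NAD salvage) or Nfkbiz (the gene of IκB-ζ, a nuclear co-factor of NF-κB). The cells of each of the 3 lines received an adenovirus with eGFP alone (GFP cells) or with Cre and eGFP (Cre cells), for 24 h, and were then left without cytokine or given IL-1β at 10 ng/mL for 24 h. Wild-type cells without virus were left untreated or given IL-1β at 10 ng/mL, the LDHA inhibitor FX11 at 40 µM, or both, for 24 h. Every one of the 16 conditions had 2 libraries. The labels tie no library to an animal or a culture, so p-values here measure only the spread between these libraries. No line without loxP sites received the Cre virus, so an effect of the Cre virus and one of the deletion cannot be told apart.

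Cholesterol is built from acetyl-CoA through HMG-CoA, mevalonate and squalene, and the genes of this route are switched on by SREBP-2 when sterols in the endoplasmic reticulum run low. Hydroxylated cholesterols, the oxysterols, hold SREBP-2 back and serve as ligands of the LXR receptors, whose targets export cholesterol. In cartilage, Ch25h, Cyp7b1 and the receptor RORα form a chain that has been linked with osteoarthritis. Ch25h encodes the enzyme that adds a side-chain hydroxyl to cholesterol, Cyp7b1 an enzyme that hydroxylates such oxysterols further, and Rora encodes RORα, a nuclear receptor with a sterol-binding pocket. Abca1 encodes a membrane pump for cholesterol efflux and is a classical LXR target. Hmgcs1 makes HMG-CoA, Sqle epoxidises squalene, Insig1 keeps the SREBP complex in the endoplasmic reticulum, and Srebf2 encodes SREBP-2 itself.

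The genes are given at their GRCm38 positions in the count files. Ch25h (ENSMUSG00000050370) is a single-exon gene on the minus strand, chr19:34473786-34475135. Cyp7b1 (ENSMUSG00000039519) lies on the minus strand at chr3:18071950-18243338, and Rora (ENSMUSG00000032238) on the plus strand at chr9:68653786-69388246. Hmgcs1 (ENSMUSG00000093930) lies on the plus strand at chr13:119690462-119708086, and Sqle (ENSMUSG00000022351) on the plus strand at chr15:59315077-59331192. Insig1 (ENSMUSG00000045294) is at chr5:28071363-28078662 and Srebf2 (ENSMUSG00000022463) at chr15:82147266-82205376, both on the plus strand. Abca1 (ENSMUSG00000015243) is at chr4:53030787-53159895 on the minus strand. An opposite-strand gene, Gm26902, overlaps Ch25h by 159 bases and another, Gm15511, overlaps Rora by 82 bases. The strand setting of the counting is not given in the sources used here, so reads in those stretches cannot be assigned to one gene.

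Upstream sequence was found for 6 of the 8 genes (RefSeq, GRCm38.p6), and none was available for Cyp7b1 or Sqle, which were not searched. Shown are 3 windows of 250 bases that end at the base before the RefSeq start, because they carry textbook letters of the pathway. Capitals mark matches to the motifs searched on both strands. The sterol regulatory element TCACNCCAC, the site that SREBPs bind, occurred in 1.05% of 32851 such windows, and Hmgcs1 was the 1 gene of the 6 with a match, 137 to 129 bases before its start. Hmgcs1 also had 3 CCAAT boxes, each read as ATTGG on the printed strand, and Insig1 and Srebf2 had 1 each, so 3 of the 6 windows matched against 33.8% of all windows. The cAMP response element TGACGTCA was present in Ch25h, 61 to 54 bases before its start, and in 1.55% of all windows. The E-box CACGTG was present in Abca1, 147 to 142 bases before its start, and in Insig1, and in 6.02% of all windows. The AP-1 letters TGANTCA were in 6.75% of all windows and the NF-κB site, searched by its usual consensus, in 3.90%, and neither matched in the 6 windows. A match is a description of these letters and no evidence of binding.
Hmgcs1, chr13:119690101-119690350, plus strand: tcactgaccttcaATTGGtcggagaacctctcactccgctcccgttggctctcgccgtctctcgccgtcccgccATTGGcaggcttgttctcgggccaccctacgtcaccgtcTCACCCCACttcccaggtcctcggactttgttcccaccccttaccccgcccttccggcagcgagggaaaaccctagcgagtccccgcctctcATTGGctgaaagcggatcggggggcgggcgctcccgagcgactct
Ch25h, chr19:34475149-34475398, minus strand: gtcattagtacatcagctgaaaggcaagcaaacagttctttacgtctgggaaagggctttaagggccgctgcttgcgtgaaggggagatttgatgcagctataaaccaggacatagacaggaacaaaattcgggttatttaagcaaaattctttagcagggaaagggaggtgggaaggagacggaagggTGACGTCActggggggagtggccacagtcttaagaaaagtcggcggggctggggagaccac
Abca1, chr4:53159896-53160145, minus strand: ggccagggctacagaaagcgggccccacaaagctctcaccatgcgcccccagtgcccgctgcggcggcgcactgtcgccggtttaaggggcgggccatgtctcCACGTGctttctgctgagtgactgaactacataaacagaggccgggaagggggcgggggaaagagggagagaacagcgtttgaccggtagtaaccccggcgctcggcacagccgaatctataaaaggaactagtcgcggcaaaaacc

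The libraries held between 15830658 and 39959888 counts on genes, with a median of 25363482. Titles are written in 2 styles, and libraries are called set 1 (12 libraries) and set 2 (20 libraries) after them. In the Ldha and Nampt lines replicate 1 is of set 1 and replicate 2 of set 2, whereas both Nfkbiz replicates are of set 2. The targeted genes followed the labels: normalised CPM of Ldha was 868 and 917 in GFP cells and 111 and 118 in Cre cells of its line without IL-1β. Nampt was 54.5 and 59.4 against 6.71 and 6.85, and Nfkbiz, with IL-1β, was 229 and 235 against 29.4 and 32.3. Mmp3, an IL-1β-induced matrix protease, went against 2 wild-type labels of set 2: in set 2 it was 0.783 under the label IL-1β and 2014 under the label FX11, where set 1 gave 9114 and 1.19. Wild-type values are therefore kept apart from the floxed lines. Summed normalised CPM of 9 chondrocyte marker genes was 70713 to 92502 in GFP cells without IL-1β, 26196 to 32587 in GFP cells with IL-1β, 13798 to 15098 in Ldha and Nampt Cre cells with IL-1β, and 36385 to 39099 in Nfkbiz Cre cells with IL-1β. In bulk RNA, fewer cells of a type and less RNA per cell cannot be told apart. Leukocyte markers summed to 14.9 to 26.7 in GFP cells without IL-1β, 35.9 to 68.7 with it, and 24.5 to 61.9 in Cre cells with it, and none of their defining genes was at 0 in any library. By median in GFP cells without and with IL-1β, Cd14 was 1.58 and 8.60, Cd68 8.43 and 17.2, and Lyz2 4.51 and 7.15. Ptprc was 0.326 and 0.522, Adgre1 0.673 and 0.955, and Csf1r 2.43 and 2.76, so these markers moved by unequal amounts. Markers of fibroblasts and perichondrium summed to 1004 to 1487 in the Nfkbiz line and 2429.9 to 6129 in the other lines. Endothelial markers were at 7.30 to 8.92 in Ldha and Nampt GFP cells without IL-1β, 8.23 to 10.7 in the same cells with it, 21.6 to 29.2 in their Cre cells with it, and 4.32 to 10.5 in the Nfkbiz line. The part of these marker shifts in the results on the 8 genes was not tested.

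Levels between genes were compared per kilobase of exon. In the 6 GFP libraries without IL-1β, Insig1 stood at 46.5 ± 2.61 (SD, n = 6) normalised CPM per kilobase, Srebf2 at 44.1 ± 3.24 and Hmgcs1 at 36.1 ± 4.31. These 3 genes of sterol sensing and synthesis were the most abundant of the 8, and neighbours in that order overlapped between libraries. Sqle followed at 12.9 ± 2.00, then Rora at 2.40 ± 0.338 and Abca1 at 2.04 ± 0.291, a pair whose libraries overlapped. The oxysterol hydroxylases were the lowest, Cyp7b1 at 0.649 ± 0.128 and Ch25h at 0.0798 ± 0.0760. With IL-1β, Cyp7b1 was at 5.14 ± 0.699, Abca1 at 4.70 ± 1.23, Ch25h at 4.03 ± 1.36 and Rora at 3.52 ± 0.740 per kilobase, still below Sqle at 13.7 ± 1.04.

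**Figure D1:**
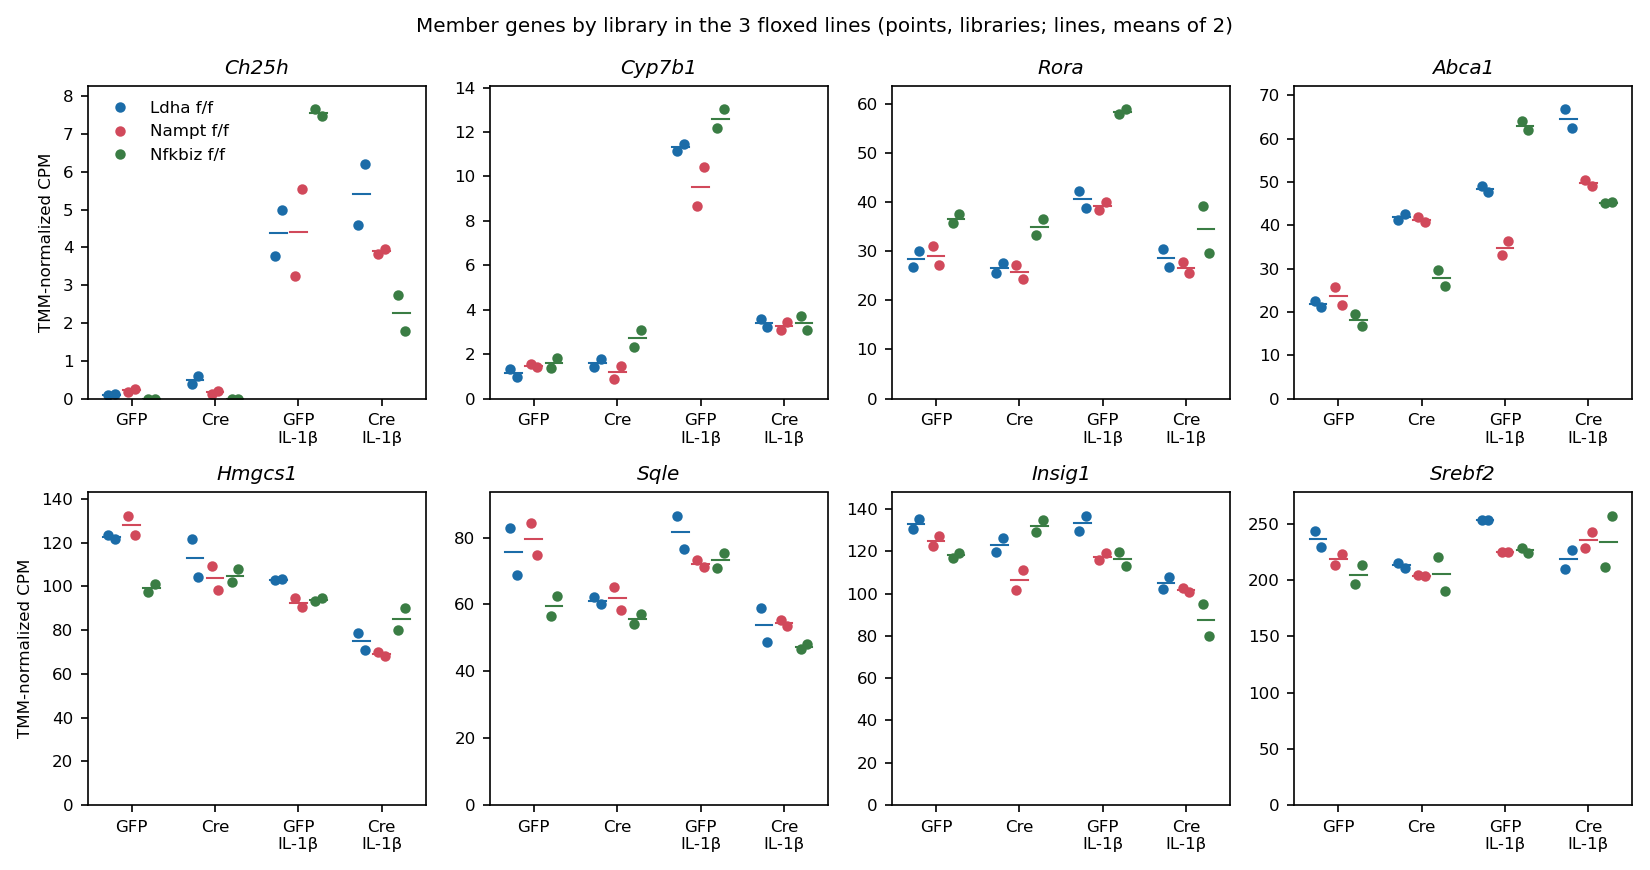
Normalised CPM (linear axis from 0) of the 8 genes in each of the 24 floxed libraries, 1 panel a gene; points are libraries, colours the Ldha, Nampt and Nfkbiz lines, short lines the mean of 2. In GFP cells, Ch25h and Cyp7b1 stood far higher with IL-1β than without it. Ch25h in Cre cells with IL-1β stayed near the GFP cells in the Ldha and Nampt lines and was lower in the Nfkbiz line. Srebf2 varied least, between 190 and 257.

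IL-1β in GFP cells answers what the cytokine did to these genes while the target genes were intact. Cyp7b1 was 7.90-fold higher over the 3 lines, Rora and Abca1 rose less, and Ch25h went from at most 7 to at least 81 counts per library. Hmgcs1 fell slightly over the lines, whereas Sqle and Insig1 did not pass there, and Sqle passed in the Nfkbiz line alone. The 6 GFP libraries of each kind were put in 1 fit with line and library set as terms (edgeR quasi-likelihood test, Benjamini-Hochberg adjusted p at or below 0.05). There, Ch25h aside, 4 of the other 7 genes were higher and 1 lower with IL-1β. Of 14283 genes tested, 56.2% were called. Within lines, 3 of these 7 were called in Ldha cells (27.9% of all genes), 4 in Nampt cells (35%) and 4 in Nfkbiz cells (26.8%). Without IL-1β, and for the change with it, Ch25h is described by its counts and ratios, because it passed the filter on low values only through its IL-1β libraries. Its tests are read only among the Cre and GFP libraries with IL-1β, where none fell below 1.78 normalised CPM. Its other calls enter the counts but are not read as support.

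Ch25h was nearly silent without IL-1β. It had 3 counts in each Ldha GFP library (0.0859 and 0.121 normalised CPM), 7 and 5 in Nampt GFP cells (0.177 and 0.262) and 0 in both Nfkbiz GFP libraries, where 3 counts over the group would be 0.0649 normalised CPM. With IL-1β it was 3.77 and 4.98 in Ldha, 3.24 and 5.55 in Nampt, and 7.66 and 7.47 in Nfkbiz GFP cells. The libraries with and without IL-1β did not overlap in any line. The ratio of summed counts, scaled by library size, was 41.9 in the Ldha line (95% exact interval 19.0 to 115, 6 counts against 247) and 20.2 in the Nampt line (11.3 to 39.9, 12 against 171), and Ch25h was at least 116-fold higher in the Nfkbiz line. These intervals cover counting error only.

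Cyp7b1, next in the chain, was between 0.968 and 1.81 normalised CPM in the 6 GFP libraries without IL-1β. With IL-1β it was 11.1 and 11.5 in Ldha, 8.64 and 10.4 in Nampt, and 12.2 and 13.0 in Nfkbiz GFP cells, so every treated library lay above every untreated one. The log2 change was 3.28 ± 0.23 (SE) in Ldha (adjusted p = 5e-06), 2.69 ± 0.27 in Nampt (2.1e-05) and 2.99 ± 0.24 in Nfkbiz cells (1.5e-06), and 2.98 ± 0.13 over the lines (7.1e-12). Rora, the receptor gene, went from 26.8 and 30.1 to 42.3 and 38.8 in Ldha GFP cells, from 31.1 and 27.1 to 38.3 and 40.0 in Nampt GFP cells, and from 35.6 and 37.6 to 57.9 and 58.9 in Nfkbiz GFP cells. The groups did not overlap within any line, and the log2 change over the lines was 0.55 ± 0.06 (adjusted p = 3.8e-07).

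Abca1, the efflux pump, rose in all 3 lines but by unequal amounts. It was 22.4 and 21.1 normalised CPM without and 49.0 and 47.7 with IL-1β in Ldha GFP cells, 25.7 and 21.6 against 33.1 and 36.3 in Nampt, and 19.5 and 16.6 against 64.1 and 61.9 in Nfkbiz. The log2 change was 1.15 ± 0.08 (adjusted p = 5.2e-06), 0.56 ± 0.10 (0.0011) and 1.82 ± 0.11 (1.7e-07) respectively. In a fit of all floxed libraries with library set as a term, the response of the Nfkbiz line exceeded that of the Ldha line by 0.66 ± 0.13 (adjusted p = 0.0053) and that of the Nampt line by 1.24 ± 0.13 (6e-06). The Ldha and Nampt lines differed by 0.58 (95% interval 0.31 to 0.85), which did not pass (adjusted p = 0.21, and 0.0084 to 0.46 over its alternatives: it was called by limma-voom, 0.62 with adjusted p = 0.021, and with no filter). Both comparisons with the Nfkbiz line share its libraries. Such line differences were called for 2.42% of 16727 genes (Nfkbiz against Ldha), 4.01% (Nfkbiz against Nampt) and 0.012% (Ldha against Nampt).

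The synthesis and control genes moved little with IL-1β. Hmgcs1 was 123 and 122 normalised CPM without and 103 and 103 with IL-1β in Ldha GFP cells, 132 and 124 against 94.9 and 90.4 in Nampt, and 97.6 and 101 against 93.2 and 94.7 in Nfkbiz. The fall was clear of the library spread in the Ldha and Nampt lines, and the Nfkbiz values differed by a few CPM. Over the lines the log2 change was −0.25 ± 0.05 (adjusted p = 0.00054), and the call was lost (0.059) when the 4 wild-type control and IL-1β libraries were added to the fit. By line, it was called in Nampt (−0.44 ± 0.07, adjusted p = 0.00064) but not in Nfkbiz cells (−0.07, 0.66). In Ldha cells Hmgcs1 (−0.25 ± 0.09) had an adjusted p of 0.052, and of 0.005 with replicate number as a block (0.005 to 0.66 over the alternatives, with DESeq2 at 0.034). It also passed without Ldha Cre replicate 1 (0.043) or 2 (0.042).

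Sqle, the epoxidase, went from 56.6 and 62.6 to 71.0 and 75.5 in Nfkbiz GFP cells (0.31 ± 0.10 on the log2 scale, adjusted p = 0.029). That call was lost when any 1 of the 4 Nfkbiz GFP libraries was left out (adjusted p from 0.056 to 0.24), and with no filter (0.057). In the other lines Sqle was 82.9 and 68.8 against 86.6 and 76.7 (Ldha) and 84.5 and 74.8 against 73.4 and 71.1 (Nampt), with overlap in Ldha. Over the lines its change of 0.10 ± 0.06 was not called (adjusted p = 0.17), although it was without Nampt GFP IL-1β replicate 1 (0.043) and in set 2 alone (0.04). Insig1, the brake on SREBP processing, changed by −0.02 ± 0.04 (adjusted p = 0.6), from 117 to 135 normalised CPM without and 113 to 137 with IL-1β. Srebf2 changed by 0.11 ± 0.04 (0.031), a call lost without replicate 1 of Ldha (0.067), Nampt (0.054) or Nfkbiz (0.066) GFP cells with IL-1β, with no filter (0.14), in set 2 alone (0.069) and with the wild-type libraries added (0.5).

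**Figure D2:**
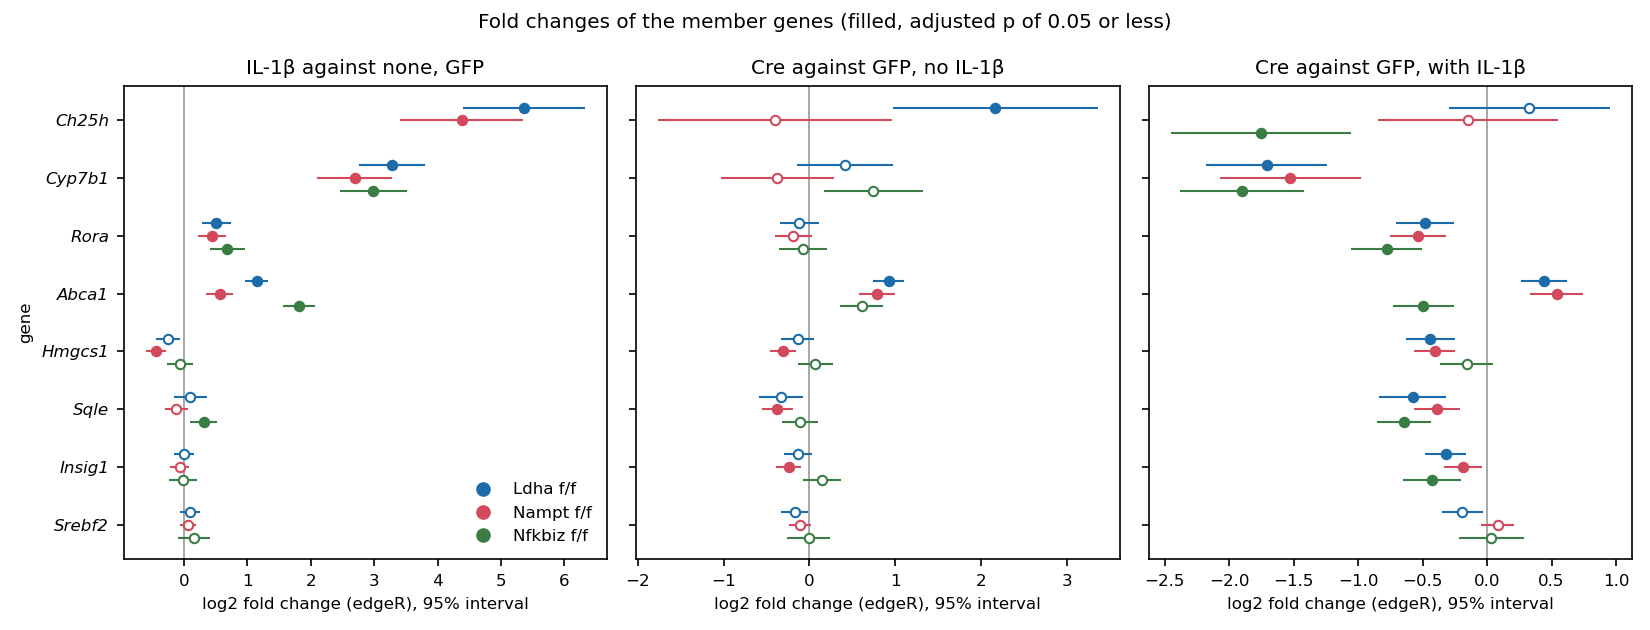
Log2 fold changes with 95% intervals for the 8 genes in each floxed line: IL-1β in GFP cells, Cre against GFP cells without IL-1β, and Cre against GFP cells with IL-1β. Filled symbols passed an adjusted p of 0.05. Ch25h of the Nfkbiz line is not drawn in the first 2 panels because its untreated libraries were at 0. Ch25h of the Ldha and Nampt lines is drawn in those panels, but its calls there are not read as support. With IL-1β the Cre difference of Abca1 is above 0 in the Ldha and Nampt lines and below it in the Nfkbiz line.

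Cre against GFP cells without IL-1β addresses the genes at rest. Abca1 was the gene of the 8 that stood out: it was higher in Cre cells of the Ldha and Nampt lines by 0.92 ± 0.08 (adjusted p = 0.00022) and 0.79 ± 0.09 (0.0003) on the log2 scale. Its normalised CPM was 41.1 and 42.7 in Ldha Cre and 41.8 and 40.8 in Nampt Cre cells, above all 4 GFP libraries of these lines. In Nfkbiz Cre cells Abca1 was 29.6 and 25.9 against 19.5 and 16.6, a difference of 0.61 ± 0.12 that did not pass in edgeR (adjusted p = 0.063) but did in DESeq2 (0.01), with no filter (0.0026) and without either Nfkbiz Cre IL-1β library (0.033 each). In all, 2 of 8 genes, Ch25h included, were called in Ldha cells (5.52% of all genes), 4 in Nampt cells (14.4%) and 0 in Nfkbiz cells (0.26%). In Nfkbiz cells 2 of the 8 had an unadjusted p under 0.05, DESeq2 called 1 and limma-voom 0.

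The second called gene in Ldha cells was Ch25h, with 13 counts in each Cre library (0.388 and 0.587 normalised CPM) against 3 and 3, a ratio of 4.65 (95% exact interval 1.87 to 13.8). This call was narrow and was lost when any 1 of the 8 Ldha libraries was left out. It is not read as support, because Ch25h passed the filter only through its IL-1β libraries. In Nampt cells Ch25h had 5 and 5 counts in Cre against 7 and 5 in GFP cells, a ratio of 0.764 (0.296 to 1.93), and in Nfkbiz cells all 4 libraries were at 0. Cyp7b1 passed in no line without IL-1β: it was 1.40 and 1.76 (Ldha), 0.891 and 1.48 (Nampt) and 2.33 and 3.08 (Nfkbiz) in Cre cells, and the Nfkbiz Cre values lay above both of their GFP libraries (0.74 ± 0.27, adjusted p = 0.56). Rora in Cre cells was 24.4 to 36.6 over the lines and passed in none.

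In Nampt Cre cells without IL-1β, 3 genes of synthesis and its control were lower. Hmgcs1 was 109 and 98.5 against 132 and 124 normalised CPM (−0.31 ± 0.07, adjusted p = 0.013), Sqle 65.3 and 58.4 against 84.5 and 74.8 (−0.37 ± 0.08, 0.01), and Insig1 102 and 111 against 123 and 127 (−0.24 ± 0.07, 0.035). No Cre library overlapped a GFP library for these genes, but the calls were narrow. Without Nampt GFP replicate 1 or Nampt Cre replicate 2, Hmgcs1 (0.098 and 0.12) and Sqle (0.093 and 0.092) were lost. Insig1 was lost without any 1 of 6 libraries, all but Nampt GFP IL-1β replicate 2 and Nampt Cre replicate 2 (0.051 to 0.23), and with no filter (0.058). In Ldha cells the corresponding differences were −0.13 for Hmgcs1, −0.33 for Sqle and −0.13 for Insig1. None of them passed in the per-line fit, and Sqle did with replicate number as a block (adjusted p = 0.0044, 0.0044 to 1 over the alternatives) and with no filter (0.023).

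With IL-1β, the same comparison asks what the Cre virus and deletion did to stimulated cells. Cyp7b1 was lower in Cre cells of every line, to 0.306 of its GFP level in the Ldha line, 0.347 in the Nampt line and 0.268 in the Nfkbiz line, and Rora and Sqle were lower in every line as well. Abca1 was higher in Cre cells of the Ldha and Nampt lines and lower in the Nfkbiz line, and Ch25h was lower in the Nfkbiz line, with no call in the other lines. In Ldha and in Nampt cells 1 of the 8 genes was higher and 5 were lower, beside 34% and 48.4% of all genes called. In Nfkbiz cells 6 were lower, beside 17.4% of all genes.

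Cyp7b1 had the steepest fall. With IL-1β it was 3.57 and 3.21 normalised CPM in Ldha Cre, 3.07 and 3.46 in Nampt Cre, and 3.73 and 3.08 in Nfkbiz Cre cells, against 8.64 to 13.0 in the GFP cells. The 6 Cre libraries lay together, below every GFP library with IL-1β and above every GFP library without it. The log2 difference was −1.71 ± 0.21 (adjusted p = 0.00018), −1.53 ± 0.25 (0.00045) and −1.90 ± 0.22 (7.4e-05). Between lines these differed by −0.17 (Ldha less Nampt, 95% interval −0.77 to 0.44), −0.16 (Nfkbiz less Ldha, −0.77 to 0.44) and −0.33 (Nfkbiz less Nampt, −0.94 to 0.28), and none passed. The IL-1β response of Cyp7b1 was smaller in Cre than in GFP cells, with an interaction of −2.13 ± 0.32 in Ldha (adjusted p = 0.0025) and −2.65 ± 0.34 in Nfkbiz cells (0.00062). In Nampt cells it was −1.16 ± 0.39 (adjusted p = 0.055, 0.019 to 0.72 over the alternatives). It was called there with replicate number as a block (−1.11, 0.019) and without Nampt Cre replicate 1 (−1.51, 0.025).

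Interactions were called for 2 of 8 genes in Ldha cells, 0 in Nampt cells and 5 in Nfkbiz cells, all 7 of them negative, beside 11.5%, 22% and 5.19% of all genes. In Nampt cells 3 genes had an unadjusted p under 0.05, DESeq2 and limma-voom called 0, and the block called Cyp7b1, Rora (−0.35, adjusted p = 0.02, 0.02 to 0.76 over the alternatives) and Srebf2 (0.19, adjusted p = 0.011, 0.011 to 0.9). In Ldha cells the block added Ch25h (−1.83, adjusted p = 0.042, 0.042 to 0.86) and Hmgcs1 (−0.30, adjusted p = 0.026, 0.026 to 0.89). The Ch25h call draws on its libraries without IL-1β and is not read as support. In Nfkbiz cells the interaction of Ch25h had no estimate, since its libraries without IL-1β were at 0.

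Ch25h set the lines apart under IL-1β. In Nfkbiz Cre cells it was 2.75 and 1.78 normalised CPM against 7.66 and 7.47, a ratio of 0.300 (95% exact interval 0.238 to 0.375), with a log2 difference of −1.75 ± 0.32 (adjusted p = 0.0033). In Ldha Cre cells it was 4.59 and 6.22 against 3.77 and 4.98 (0.33 ± 0.28, adjusted p = 0.41), and in Nampt Cre cells 3.82 and 3.96 against 3.24 and 5.55 (−0.15 ± 0.32, 0.73). Cre and GFP cells overlapped in both of those lines. The count ratios were 1.25 in Ldha (95% exact interval 1.04 to 1.49, counting error only) and 0.934 in Nampt cells (0.764 to 1.14). Within library sets 1 and 2 the ratios were 1.22 and 1.25 in Ldha, and 1.18 and 0.713 in Nampt cells. The difference in the Nfkbiz line was below that in the Ldha line by 2.04 on the log2 scale (−2.04 ± 0.35, adjusted p = 0.00014) and below that in the Nampt line (−1.61 ± 0.35, 0.0012), and the Ldha and Nampt lines differed by 0.43 (95% interval −0.28 to 1.15). With IL-1β, the Cre difference of Ch25h was called in the Nfkbiz line alone, whereas that of Cyp7b1, next in the chain, was called in every line. The 2 genes were not tested against each other. IL-1β still raised Ch25h in Cre cells of each line, by a ratio of 11.2 (7.48 to 17.5) in Ldha, 24.7 (13.2 to 52.3) in Nampt and at least 33.0-fold in Nfkbiz.

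Rora was lower in Cre cells with IL-1β. It was 30.4 and 26.7 against 42.3 and 38.8 normalised CPM in Ldha, 27.8 and 25.5 against 38.3 and 40.0 in Nampt, and 39.2 and 29.7 against 57.9 and 58.9 in Nfkbiz cells. The log2 differences were −0.48 ± 0.10 (adjusted p = 0.005), −0.54 ± 0.10 (0.00097) and −0.78 ± 0.13 (0.001), and no Cre library overlapped a GFP library of its line. The interaction of Rora in Nfkbiz cells, −0.70 ± 0.18 (adjusted p = 0.043), was lost without any 1 library except Nfkbiz Cre IL-1β replicate 1 (0.054 to 0.16).

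Abca1 with IL-1β was 66.8 and 62.4 in Ldha Cre against 49.0 and 47.7 in Ldha GFP cells, and 50.5 and 49.0 against 33.1 and 36.3 in the Nampt line. In the Nfkbiz line it was 45.1 and 45.3 in Cre against 64.1 and 61.9 in GFP cells. The log2 differences were 0.44 ± 0.08 (adjusted p = 0.0019), 0.54 ± 0.09 (0.00071) and −0.50 ± 0.11 (0.0071), the last lost without Nfkbiz GFP IL-1β replicate 1 (0.075). The opposite directions were tested directly: Nfkbiz less Ldha was −0.90 ± 0.12 (adjusted p = 6.1e-06) and Nfkbiz less Nampt was −0.99 ± 0.13 (1.4e-06), where 27% and 36.3% of all genes differed. Ldha less Nampt was −0.09 (95% interval −0.35 to 0.17), where 0.538% did. Of the 8 genes, 3 differed between the Nfkbiz line and each of the others, and 0 between the Ldha and Nampt lines, with 1 at an unadjusted p under 0.05 and 0 by DESeq2 and limma-voom. The Abca1 interaction was −1.10 ± 0.16 in Nfkbiz cells (adjusted p = 0.0011) and −0.48 ± 0.11 in Ldha cells (0.022). The Ldha call was lost without any 1 library except Ldha GFP replicate 1 and Ldha Cre IL-1β replicate 1 (0.052 to 0.082).

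Under IL-1β, Sqle was lower in Cre cells of all 3 lines and Hmgcs1 in those of the Ldha and Nampt lines. Hmgcs1 was 78.5 and 71.2 against 103 and 103 in Ldha cells (−0.44 ± 0.09, adjusted p = 0.0032), 70.0 and 68.2 against 94.9 and 90.4 in Nampt cells (−0.41 ± 0.07, 0.00076), and 80.3 and 90.2 against 93.2 and 94.7 in Nfkbiz cells (−0.16 ± 0.09, 0.29). Hmgcs1 is the gene whose upstream window holds the sterol regulatory element printed above, while Sqle had no upstream window to search. Sqle was 59.0 and 48.7 against 86.6 and 76.7 in Ldha cells (−0.58 ± 0.12, adjusted p = 0.0039), 55.4 and 53.5 against 73.4 and 71.1 in Nampt cells (−0.39 ± 0.08, 0.0024), and 46.6 and 48.2 against 71.0 and 75.5 in Nfkbiz cells (−0.65 ± 0.10, 0.00054). Neither gene's Cre libraries overlapped the GFP libraries of their line. For Hmgcs1 the difference in Nfkbiz cells was less negative than in Ldha cells by 0.32 ± 0.10 (adjusted p = 0.021) and than in Nampt cells by 0.30 ± 0.10 (0.026). Both Hmgcs1 calls were lost without library set as a term (0.055 and 0.059), the second also with no filter (0.2), and without 5 and 7 of the 24 floxed libraries in turn (up to 0.11 and 0.16).

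Insig1 was 102 and 108 against 130 and 137 in Ldha cells (−0.32 ± 0.07, adjusted p = 0.0066), 103 and 101 against 116 and 119 in Nampt cells (−0.19 ± 0.07, 0.038) and 95.3 and 79.9 against 120 and 113 in Nfkbiz cells (−0.43 ± 0.10, 0.013). All 6 Cre values lay below the GFP values of their line, though each call was narrow. It was lost without Ldha GFP IL-1β replicate 2 (0.054) in the Ldha line, without Nampt Cre IL-1β replicate 1 (0.062) or 2 (0.15) or Nampt GFP IL-1β replicate 2 (0.16), or with no filter (0.18), in the Nampt line, and without Nfkbiz GFP IL-1β replicate 1 (0.12) or 2 (0.059) or Nfkbiz Cre IL-1β replicate 2 (0.054) in the Nfkbiz line. Srebf2, whose product drives the synthesis genes, was 210 and 227 against 253 and 253 in Ldha, 228 and 242 against 225 and 225 in Nampt, and 211 and 257 against 229 and 224 in Nfkbiz cells. It was called in no line (Ldha −0.19 ± 0.07, adjusted p = 0.064). With replicate number as a block the Ldha difference of Srebf2 passed (0.012, 0.012 to 0.63 over the alternatives), as it did by DESeq2 (0.05), by limma-voom (0.034) and without Ldha Cre IL-1β replicate 2 (0.047).

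Interactions aside, the 8 genes, Ch25h included, had 27 calls in the Ldha and Nampt lines. All 27 had the same sign in both library sets, from which the calls themselves were made. For Cyp7b1 in Cre against GFP cells with IL-1β, the log2 ratio was −1.64 in set 1 and −1.84 in set 2 of the Ldha line, and −1.49 and −1.59 in the Nampt line. For Abca1 these were 0.45 and 0.39, and 0.61 and 0.43. The Nfkbiz line has libraries of set 2 only, so its difference from the other lines can be read within set 2 but not in set 1.

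The wider pathway was followed with a list of 62 genes in 5 groups. Among the 20 genes of cholesterol synthesis, IL-1β in GFP cells raised 7 and lowered 2 (median log2 change 0.06, all genes −0.01), a smaller share than the 56.2% of all genes called. Hsd17b7, a sterol ketone reductase of the route (0.50 ± 0.07, adjusted p = 8.4e-06), was among those that rose. In Cre cells with IL-1β, 1 of the 20 was higher and 12 lower in Ldha cells (median −0.32), 1 higher and 9 lower in Nampt cells (−0.26), and 0 higher and 10 lower in Nfkbiz cells (−0.36). Of all genes 34%, 48.4% and 17.4% were called in these comparisons, which are the shares for the Cre counts with IL-1β of the other gene groups as well. Sqle is in each of these counts, and Hmgcs1 in the first 2. Cyp51, the lanosterol demethylase, was lower by −0.70 ± 0.07 (adjusted p = 7.1e-05), −0.89 ± 0.07 (2.7e-06) and −0.41 ± 0.10 (0.012), and Lss, lanosterol synthase, by −0.73 ± 0.08 (8.3e-05), −0.51 ± 0.07 (0.00021) and −0.46 ± 0.11 (0.0097). Dhcr7, the last reductase of the route, was the 1 gene higher in Ldha cells (0.49 ± 0.09, 0.0024) and in Nampt cells (0.92 ± 0.08, 4.5e-06). Without IL-1β, Cre lowered 1 of the 20 in Ldha, 7 in Nampt and 0 in Nfkbiz cells. Of all genes 5.52%, 14.4% and 0.26% were called there.

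**Figure D3:**
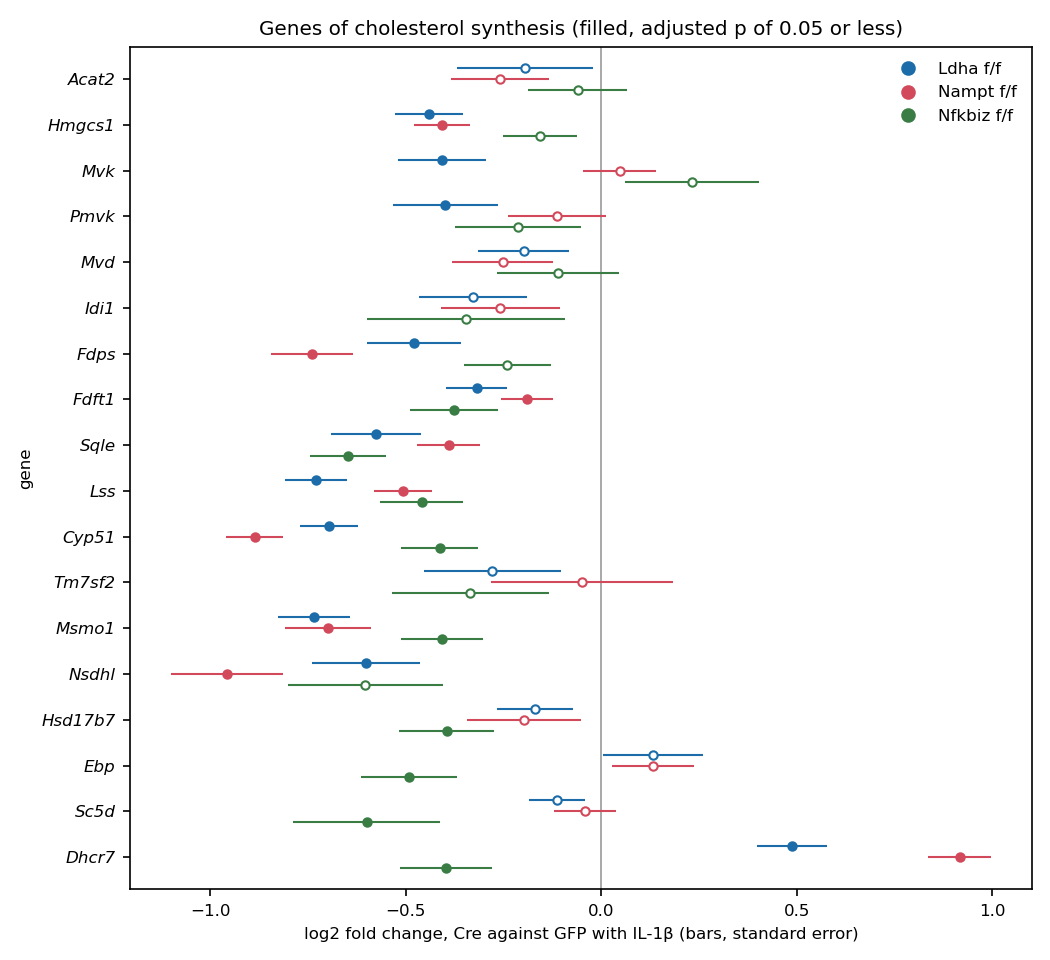
Log2 fold change with its standard error, Cre against GFP cells with IL-1β, for 18 of the 20 genes of cholesterol synthesis in route order in the Ldha, Nampt and Nfkbiz lines. Most genes lie below 0, with Dhcr7 above 0 in the Ldha and Nampt lines.

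Of the 11 genes of SREBP control and LDL uptake, IL-1β raised 4 and lowered 4, where 56.2% of all genes were called. Insig2, the relative of Insig1, rose by 0.79 ± 0.07 (adjusted p = 4.2e-08) while Insig1 did not pass, and Srebf1 fell by 0.49 on the log2 scale (−0.49 ± 0.04, 7.5e-08). With Cre and IL-1β 0 were higher and 5 lower in Ldha cells, 2 and 4 in Nampt cells, and 1 and 3 in Nfkbiz cells, where Insig2 (−0.86 ± 0.11, adjusted p = 0.00013) and the sterol carrier Stard4 (−0.49 ± 0.10, 0.0064) fell.

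The 8 genes of LXR and cholesterol efflux, Abca1 among them, gave 4 higher and 1 lower with IL-1β (median 0.18, 56.2% of all genes called). In Cre cells with IL-1β 4 were higher and 2 lower in Ldha (median 0.41), 5 and 1 in Nampt (0.71), and 2 and 2 in Nfkbiz cells (−0.18). Abcg1, the partner exporter to lipoprotein particles, was higher in Ldha (2.52 ± 0.18, adjusted p = 5.5e-06), Nampt (2.92 ± 0.20, 6.9e-07) and Nfkbiz cells (0.94 ± 0.28, 0.035). Arl4c, a small GTPase and LXR target, was higher by 2.27 ± 0.09 (1.6e-07), 2.32 ± 0.08 (5.2e-09) and 0.93 ± 0.11 (0.00011). Nr1h3, the gene of LXRα, was higher in Ldha (1.20 ± 0.20, 0.0015) and Nampt cells (0.87 ± 0.23, 0.0088) and lower in Nfkbiz cells (−0.99 ± 0.26, 0.018). Without IL-1β, Abcg1 and Arl4c were already higher in Cre cells of the Ldha line (1.33 ± 0.19, adjusted p = 0.0035, and 0.96 ± 0.09, 0.00038) and the Nampt line (1.59 ± 0.20, 0.00046, and 1.30 ± 0.08, 1.9e-06), as Abca1 was.

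Of the 11 genes of oxysterol enzymes, their receptor and the ROR family, 8 or 9 could be tested. With IL-1β 4 of 8 were higher, Ch25h among them, and 2 lower, where 56.2% of all genes were called. Hsd3b7, a bile-acid-route dehydrogenase that acts after Cyp7b1, rose by 1.06 ± 0.08 (adjusted p = 8.8e-09), and Cyp27a1, a side-chain hydroxylase of mitochondria, fell (−2.17 ± 0.21, 2.1e-07). The exons of Hsd3b7 share 3523 of their 6154 bases with Setd1a on the same strand, and reads there cannot be assigned to one gene. Cre with IL-1β moved Cyp27a1 the other way from Cyp7b1, by 2.41 ± 0.27 in Ldha (0.0001), 1.88 ± 0.30 in Nampt (0.00037) and 1.15 ± 0.25 in Nfkbiz cells (0.0076). Of the 12 genes of cholesterol esters and intracellular transport, IL-1β raised 3 and lowered 5, where 56.2% of all genes were called. Soat1, which esterifies cholesterol, fell (−0.49 ± 0.04, 1.6e-08), and Scarb1, a lipoprotein receptor, rose (1.00 ± 0.08, 2.2e-08). With Cre and IL-1β 3 were higher and 3 lower in Ldha, 7 and 2 in Nampt, and 1 and 2 in Nfkbiz cells, and Soat2, the relative of Soat1, fell in Ldha (−1.13 ± 0.15, 0.00028) and Nampt cells (−1.75 ± 0.12, 6.3e-07).

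**Figure D4:**
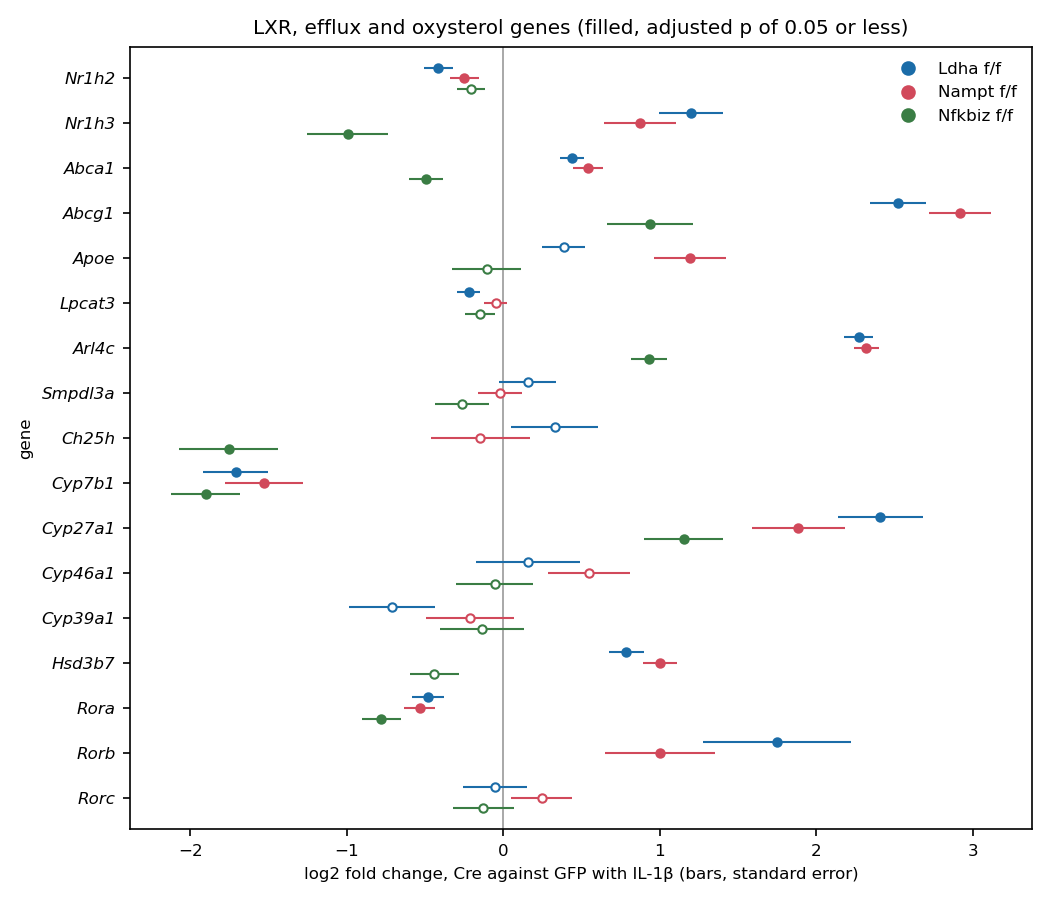
Log2 fold change with its standard error, Cre against GFP cells with IL-1β, for genes of LXR and efflux and of the oxysterol and ROR group in the 3 floxed lines. Abcg1, Arl4c and Cyp27a1 lie above 0 in every line, Cyp7b1 below 0 in every line, and Abca1 and Nr1h3 change side in the Nfkbiz line.

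Across the 12 floxed conditions, the range of each gene was ordered by its mean of 2 libraries. Ch25h, Cyp7b1 and Rora were highest in Nfkbiz GFP cells with IL-1β, at 7.56, 12.6 and 58.4 normalised CPM. Abca1 was highest in Ldha Cre cells with IL-1β (64.6) and lowest in Nfkbiz GFP cells without it (18.1), a ratio of 3.57. Hmgcs1 ran from 128 in Nampt GFP cells without IL-1β to 69.1 in Nampt Cre cells with it. Sqle was highest in Ldha GFP cells with IL-1β (81.6) and lowest in Nfkbiz Cre cells with it (47.4). Neighbours in these orders often overlapped: of 11 neighbouring pairs, 5 did for Ch25h, 7 for Cyp7b1, 9 for Rora, 4 for Abca1, 4 for Hmgcs1, 9 for Sqle, 7 for Insig1 and 9 for Srebf2. Srebf2 spanned a ratio of 1.24 and Insig1 of 1.52, the narrowest of the 8.

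The genes whose pattern was most like a member's were found by Pearson's r of log2 normalised CPM over the 16 condition means, among 16413 genes. For Ch25h these were Zc3h12a, Lbp and Cxcl1 (r of 0.98 each). For Cyp7b1 they were Sdc4, Hcar2 and Gm15242 (0.96 each), for Hmgcs1 Eif3c (0.94), Prdm16 and Ccdc155 (0.93 each), and for Abca1 Aspg (0.93), Ets2 and Cgnl1 (0.92 each). Among the 8, Cyp7b1 and Rora had r = 0.90, Ch25h and Abca1 0.86, Ch25h and Cyp7b1 0.83, Hmgcs1 and Sqle 0.72, and Hmgcs1 and Abca1 −0.78. These are descriptions over 16 points that share the IL-1β contrast and include the wild-type libraries in doubt.

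In wild-type cells as labelled, no gene of 15461 was called by edgeR for IL-1β, for FX11, or for FX11 added to IL-1β (0% each, with 153, 68 and 102 genes at an unadjusted p under 0.05). DESeq2 called 6, 2 and 1 genes and limma-voom 0. Of the 8 genes, 1, 1 and 0 had an unadjusted p under 0.05 in edgeR, and their standard errors ran from 0.41 to 1.95 on the log2 scale. Ch25h was 0.295 and 0.147 normalised CPM untreated, 14.5 and 0.597 in the libraries labelled IL-1β, 0.5 and 11.1 in those labelled FX11, and 10.2 and 15.5 in those labelled with both, set 1 first. Cyp7b1 was 4.16 and 3.74, 58.3 and 5.22, 3.36 and 26.6, and 61.3 and 26.4 in the same order. In both genes the set 2 libraries labelled IL-1β and FX11 ran against set 1, as Mmp3 did. Without these 2 libraries edgeR called 1, 0 and 0 genes.

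Set 1 has 1 wild-type library per condition, so its ratios have no replicate check. There, Ch25h was 49.2 times, Cyp7b1 14.0 times, Abca1 7.72 times and Rora 2.54 times as high with IL-1β as without. The library labelled FX11 held less of all 4 synthesis and control genes than the untreated one, at ratios of 0.563 for Hmgcs1, 0.643 for Sqle, 0.584 for Insig1 and 0.766 for Srebf2, while Abca1 was at 1.10. Against IL-1β alone, FX11 with IL-1β gave 0.446 for Hmgcs1, 0.561 for Sqle, 0.513 for Insig1, 0.796 for Srebf2, 0.703 for Ch25h, 1.05 for Cyp7b1 and 1.01 for Abca1. In these single libraries Cyp7b1 was thus about as high with the inhibitor as without it, whereas in Ldha Cre cells with IL-1β it was lower. The 2 settings differ in virus, agent and line and were not tested against each other. Set 2 is given by its labels, untreated, IL-1β, FX11 and both in that order. Hmgcs1 was 113, 53.8, 105 and 75.2, Sqle 57.1, 33.6, 72.5 and 55.7, Insig1 119, 66.1, 114 and 116, and Srebf2 223, 157, 255 and 265, so the lowest library of each gene was the one under the label IL-1β. Leukocyte markers summed to 102 to 343 normalised CPM in wild-type libraries against 14.9 to 68.7 in the floxed ones, adipocyte markers to 19.2 to 387 against 5.75 to 65.6, and their part in the wild-type levels was not tested.

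**Figure D5:**
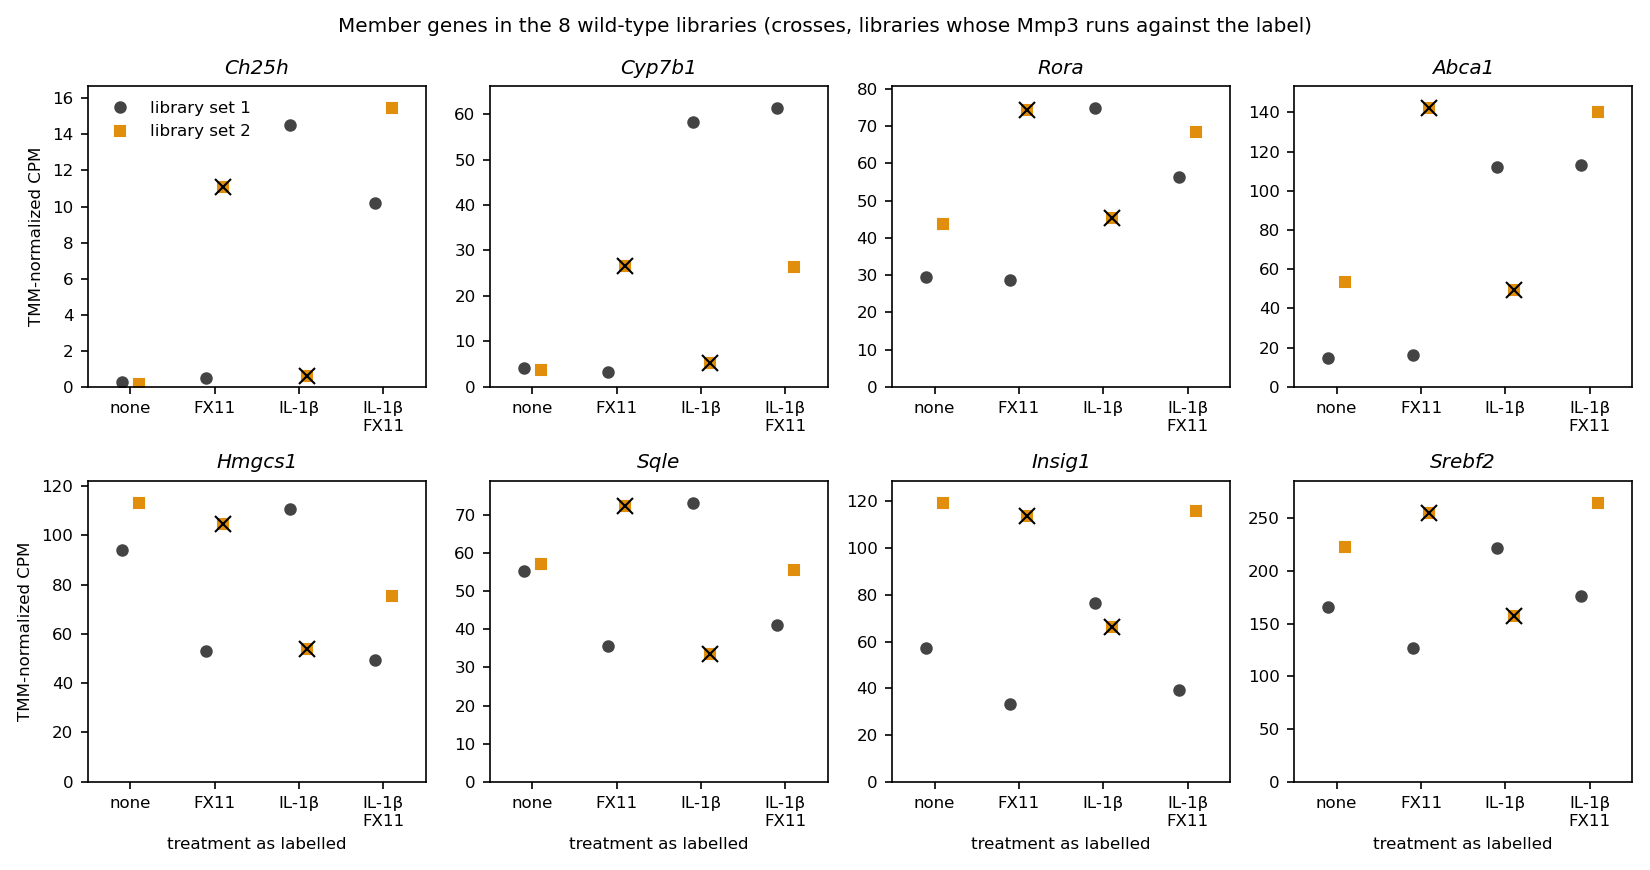
Normalised CPM of the 8 genes in the 8 wild-type libraries, by labelled treatment and library set; crosses are the 2 set 2 libraries whose Mmp3 ran against their label. Ch25h, Cyp7b1 and Abca1 were high with IL-1β in set 1, and in set 2 high in the library labelled FX11 and low in the one labelled IL-1β.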

How the data were processed

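Primary mouse chondrocytes in 16 conditions of 2 libraries each were sequenced after ribosomal RNA depletion (RiboErase). The authors aligned reads to GRCm38 with STAR and deposited raw counts per Ensembl 76 gene from featureCounts; the tool versions in the submitters' processing notes (STAR 2.0.4b, featureCounts 1.45) differ from those of the methods. The deposited tables also hold the authors' CPM and RPKM values, which were read to check the counts and not used for tests; exon length came from the same tables. Counts on 355 ribosomal RNA genes were left out.

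Groups were taken from the labels. Counts were scaled by TMM, and normalised CPM used factors over all 32 libraries. Genes had to exceed 1 CPM in at least 1 library (5 in the fit over lines). Main tests were edgeR 4.0.16 quasi-likelihood fits (R 4.3.3) per line with 4 groups. Fits over lines had line and library set as terms, and those for differences between lines had library set as a term. P-values were adjusted by Benjamini-Hochberg over all genes at 0.05. Tables and figures used Python 3.11.15. Scripts were tested on simulated counts. Alternatives were DESeq2 1.42.0, limma-voom 3.58.1, no filter, a replicate block, all libraries in 1 model and leaving out each library. Same-numbered libraries deviated together in the Ldha (r from 0.43 to 0.69) and Nampt lines (0.48 to 0.64), so block values are given there. Replicate numbers follow the title style, which marks the library set. The 8 genes and the lists were chosen with earlier results of these data known. Every one of the 8 is named in every comparison, and up to 4 other genes per list and comparison, by smallest adjusted p. Some genes of the lists are counted but not reported here by name.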

Additional observations from a re-analysis of the deposited data

Results flagged for a closer look

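Differences between groups in the same contrast were tested directly, and 17 of those that passed for the 8 genes are given here. The interaction of Cre and IL-1β was called for 2 of the 8 in Ldha, 0 in Nampt and 5 in Nfkbiz cells. Of all genes 11.5%, 22% and 5.19% were called there. The log2 change with IL-1β was lower in Cre than in GFP cells, as a signed difference, for Cyp7b1 (−2.13 in Ldha and −2.65 in Nfkbiz cells, log2 scale) and Abca1 (−0.48 and −1.10), and in Nfkbiz cells also for Insig1 (−0.58), Rora (−0.70) and Sqle (−0.54). For Insig1 this was a fall in Cre cells, from 129 and 135 to 95.3 and 79.9 normalised CPM, beside 117 and 119 against 120 and 113 in GFP cells. Of these, Insig1 was lost without any 1 library except Nfkbiz Cre IL-1β replicate 1 (adjusted p from 0.053 to 0.19), and Sqle without any 1 of the 6 libraries other than Nfkbiz Cre with IL-1β (0.069 to 0.2).

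The log2 change with IL-1β in GFP cells was higher, as a signed difference, in the Nfkbiz line for Abca1, by 0.66 against the Ldha line and 1.24 against the Nampt line, and against the Nampt line for Hmgcs1 (0.37, adjusted p = 0.041, a fall in the Nampt line that was smaller in the Nfkbiz line) and Sqle (0.42, adjusted p = 0.028). The Hmgcs1 difference was lost without 14 of the 24 floxed libraries in turn, up to an adjusted p of 0.14, and the Sqle difference without 5 of the 24, up to 0.15. Without library set as a term neither passed (Hmgcs1 0.11, Sqle 0.15). Of all genes, 2.42% differed in their IL-1β response between the Nfkbiz and Ldha lines and 4.01% between the Nfkbiz and Nampt lines.

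Under IL-1β the difference between Cre and GFP cells was lower in the Nfkbiz line for Abca1 (−0.90 against Ldha, −0.99 against Nampt) and Ch25h (−2.04 and −1.61), and less negative for Hmgcs1 (0.32 and 0.30). For Hmgcs1 the calls were lost without 5 and 7 of the 24 libraries in turn, up to adjusted p of 0.11 and 0.16. Without Nfkbiz Cre IL-1β replicate 1, Rora passed as well (−0.47 against Ldha, adjusted p = 0.016, and −0.40 against Nampt, 0.032), as did Srebf2 against Ldha (0.40, 0.0049) and Insig1 against Nampt (−0.32, 0.0086). The 2 comparisons with the Nfkbiz line share its libraries, and that line is of library set 2 only. In each of them 3 of the 8 genes passed, beside 27% of all genes against Ldha and 36.3% against Nampt.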

How the results depend on the processing

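None of the 1039 values of the 8 genes under another setting changed direction once called: 964 kept their side of the threshold, 55 fell short and 20 newly passed. Among values not called, 23 changed sign. Leaving out 1 library gave 2208 values, of which 2105 kept their side, 90 fell short and 13 newly passed. Again there were 0 reversals of called values, and 69 values not called changed sign. No setting moved the median change of all genes by more than 0.075. With all 32 libraries in 1 model, which pools the lines and adds wild type at once, 6 of the 45 calls within lines stayed. These were Ch25h and Cyp7b1 with IL-1β in each line, and those of Ch25h are not read as support.

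Counts of called genes among the 62 listed moved as follows. Shares of all genes called under each setting are not given beside them, so a move of the list cannot be told from one of all genes. For IL-1β over lines 36 became 18 with all 16 control-type libraries, wild type included. With all 32 libraries in 1 model, the counts for IL-1β went from 15 to 6 (Ldha), 22 to 6 (Nampt) and 24 to 6 (Nfkbiz). For Cre without IL-1β they went from 7 to 1 (Ldha) and 15 to 2 (Nampt), and for Cre with IL-1β from 35 to 15, 36 to 12 and 25 to 2. The interactions went from 12 to 1, 13 to 3 and 8 to 0. With replicate number as a block, IL-1β in Ldha cells gave 26 and Cre without IL-1β 12 (Ldha) and 25 (Nampt), and the interactions gave 22 (Nampt) and 4 (Nfkbiz, whose numbers did not pair, r from −0.41 to 0.15; wild type −0.27 to 0.72). The block changed no other count by over 1.5 times. Cre without IL-1β in Nfkbiz cells had 0 called, 1 by DESeq2 and 2 with no filter. Without the library-set block the Nfkbiz differences in IL-1β response gave 1 in place of 3 (against Ldha) and 3 in place of 5 (against Nampt). For Ldha against Nampt, the IL-1β response had 0 called and 1 by limma-voom or with no filter, and the Cre difference with IL-1β had 0, with 1 by DESeq2, 5 by limma-voom and 2 with no filter.

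Leaving out 1 library gave 4 to 6 for Cre without IL-1β in Ldha cells, 7 to 15 in Nampt cells and 0 to 1 in Nfkbiz cells, 11 to 25 for IL-1β and 8 to 29 for Cre with IL-1β in Nfkbiz cells, and 4 to 10, 8 to 12 and 2 to 14 for the interactions (Ldha, Nampt, Nfkbiz). The line differences ranged 1 to 4 and 2 to 5 for the IL-1β response of Nfkbiz against Ldha and Nampt, and 0 to 1 for Cre with IL-1β of Ldha against Nampt. Why these counts moved was not tested. Set 2 alone and wild type without its 2 doubtful libraries were chosen after seeing the data. With set 2 alone Srebf2 was lost for IL-1β over lines (adjusted p = 0.069) and Sqle passed (0.04). At 0 to 13 counts per library, Ch25h without IL-1β is limited by depth.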
